A study of Mus musculus with 6 samples.

Results

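Irx1, Irx2, Pou3f4 and Hhex encode homeodomain transcription factors that, among the hormone cells of the adult mouse islet, are known from alpha cells (the first 3) and delta cells (Hhex). Their probes were found by the RefSeq accession that the array annotation gives, and they are 4 of the 32494 genes or gene names on the array. The data are 6 single-colour Agilent microarrays of whole pancreatic islets, 2 per group, from mice labelled male, of ICR strain background and 16 weeks old. Both alleles of Trsp, the gene of the transfer RNA that carries selenocysteine into selenoproteins, were floxed in every group. TrspFF mice have no Cre in their label, Trsp-RIPKO mice also carried RIP-Cre, a transgene under a rat insulin promoter, and Trsp-Ins1KO mice carried Ins1-Cre. Both Cre lines are directed at beta cells, the RIP-Cre transgene is also known to act in parts of the brain, and alpha and delta cells are the intended target of neither.

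Alpha cells secrete glucagon when blood glucose falls, and delta cells secrete somatostatin, which restrains both insulin and glucagon release. In mouse development, progenitors marked by Neurog3 become one hormone cell type or another under competing transcription factors, Hhex being required for delta cells and kept on in them in the adult. Irx1 and Irx2 belong to the Iroquois family of homeodomain factors, and Pou3f4, also named Brain-4, is a POU homeodomain factor that binds the glucagon promoter. Hhex is also expressed outside the islet, in hepatocytes and endothelial cells, and those cells therefore matter for reading its level in whole islets.

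The bases just upstream of the annotated start are shown for the 3 members whose windows the RefSeq promoter table (build GRCm38.p6) holds, so that the letters before the genes whose levels are compared can be read next to each other. Each line gives the 250 bases before the start on the plus strand, at chr13:72628570-72628819 for Irx2, chrX:110814129-110814378 for Pou3f4 and chr19:37434591-37434840 for Hhex. Capitals mark matches on either strand to CCAAT (the CCAAT box, read as ATTGG on the other strand) and to GGGCGG (the GC box), and no 2 of these matches overlap.
Irx2: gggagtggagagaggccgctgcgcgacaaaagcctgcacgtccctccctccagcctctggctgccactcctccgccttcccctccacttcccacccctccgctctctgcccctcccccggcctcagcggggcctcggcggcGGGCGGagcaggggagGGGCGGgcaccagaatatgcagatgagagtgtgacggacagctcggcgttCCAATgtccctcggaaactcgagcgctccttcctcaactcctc
Pou3f4: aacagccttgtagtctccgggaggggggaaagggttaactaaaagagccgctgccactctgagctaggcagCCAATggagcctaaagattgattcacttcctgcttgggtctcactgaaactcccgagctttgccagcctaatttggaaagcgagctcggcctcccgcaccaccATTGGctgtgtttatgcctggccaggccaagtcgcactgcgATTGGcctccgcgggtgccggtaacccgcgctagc
Hhex: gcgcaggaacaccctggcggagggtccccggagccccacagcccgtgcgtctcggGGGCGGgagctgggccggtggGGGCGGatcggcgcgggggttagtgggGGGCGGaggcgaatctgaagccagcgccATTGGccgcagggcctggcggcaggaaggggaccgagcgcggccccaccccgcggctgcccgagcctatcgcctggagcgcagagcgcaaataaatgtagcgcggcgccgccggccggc
The Hhex window held 3 GC boxes and 1 CCAAT box, the Irx2 window 2 GC boxes and 1 CCAAT box, and the Pou3f4 window 3 CCAAT boxes and 0 GC boxes. G and C made up 76.0% of the Hhex window, 68.4% of the Irx2 window and 58.0% of the Pou3f4 window, against a median of 52.4% over 32851 windows. Of all those windows, 33.9% held a CCAAT box and 32.7% a GC box. The TATA box TATAAA (12.4% of all windows), the homeodomain core TAATTA (4.84%) and the POU octamer ATGCNAAT (2.86%) were found in none of the 3, and the E-box CANNTG (66.2% of all windows) was found once, before Irx2. Irx2 lies between Irx1 and Irx4 in the order of protein-coding genes on chromosome 13, Hhex lies between Kif11 and Exoc6 on chromosome 19, and Pou3f4 is on the X chromosome.

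Levels are given as log2 of the processed spot intensity minus the 75th percentile of the same array, so that a level of 0 equals that percentile. That percentile was 203.0 to 247.2 intensity units for TrspFF and Trsp-RIPKO and 110.7 to 121.9 for Trsp-Ins1KO. Probes above background made up 57.5% to 61.0% and 51.4% to 52.2% of the probes in the same order, and 0 were saturated. Spike-in RNA sat higher above the percentile on the Trsp-Ins1KO arrays, and scaling to the spike-ins would move every Trsp-Ins1KO minus TrspFF difference by -1.36 and every Trsp-RIPKO minus TrspFF difference by -0.20. A difference here is therefore a difference relative to the bulk of islet mRNA on the array. With 2 arrays a group and no statement in the labels that they came from different animals, the p-values measure the spread between these arrays and may be technical.

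Labels and values disagreed in 2 respects. Xist, the RNA that silences one X chromosome in female cells, was at -0.56 and -0.32 in TrspFF and at 1.05 and 1.34 in Trsp-RIPKO islets, although all mice are labelled male, and was not above background on either Trsp-Ins1KO array. The Y-linked genes Ddx3y, Eif2s3y, Kdm5d and Uty were above background on all 6 arrays, and all 4 were called lower in Trsp-RIPKO than in TrspFF. Ddx3y was at 0.96 and 0.78 in TrspFF, -0.53 and -0.44 in Trsp-RIPKO, with 0.75 and 0.51 in Trsp-Ins1KO. In the authors' deposited log2 table, each TrspFF column matched the scanner file of a Trsp-Ins1KO array and the reverse (r = 1.0 over 2884 probes; -0.263 and -0.435 with the file of the same name). Directions here follow the scanner files. Under the names in that table, the signs of Trsp-Ins1KO minus TrspFF turn, and Trsp-RIPKO is set against the arrays treated here as Trsp-Ins1KO. The Trsp-RIPKO arrays had a slide to themselves while the other groups shared one, so for Trsp-RIPKO the slide and the genotype cannot be told apart. The annotation names no probe of Trsp itself, and the genotypes could not be checked by the deleted gene. Sex and the table's naming were not tested as sources of any difference below.

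Of the 3 measurable members, Hhex alone passed the test, higher in one Cre line and lower in the other. In Trsp-Ins1KO islets Hhex mRNA was 0.706 times the TrspFF level and 0.601 times the Trsp-RIPKO level. In Trsp-RIPKO islets it was 1.18 times the TrspFF level, a call that most other settings ended, mostly with the size of the difference little changed. Irx1 and Irx2 stood within 0.05 (log2) of TrspFF in Trsp-RIPKO and lay 0.16 to 0.19 below it in Trsp-Ins1KO without passing the test. Pou3f4 was not measurable.

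**Figure D1:**
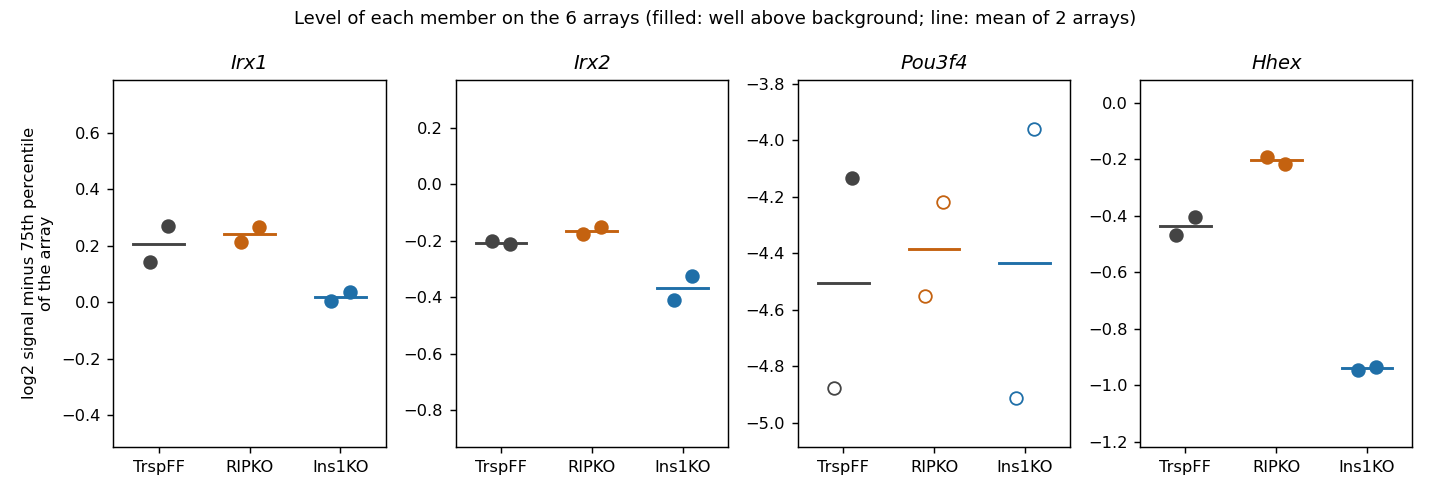
Level of each member on each of the 6 arrays, as log2 processed intensity minus the array's 75th percentile (vertical axis, its own range for each gene), by group (horizontal axis); filled points are well above background, open points are not, and lines are means of 2 arrays. The Hhex arrays of the 3 groups do not overlap (Trsp-RIPKO at -0.22 and -0.19, TrspFF at -0.47 and -0.41, Trsp-Ins1KO at -0.95 and -0.93), Irx1 and Irx2 are lowest on both Trsp-Ins1KO arrays, and Pou3f4 has 1 filled point of 6.

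Irx1 was read by 1 probe (A_52_P1092823), which was well above background on all 6 arrays. Its level was 0.14 and 0.27 in TrspFF, 0.21 and 0.27 in Trsp-RIPKO, with 0.01 and 0.04 in Trsp-Ins1KO. The Trsp-RIPKO values lay within the TrspFF range, and both Trsp-Ins1KO values lay below all 4 others. The order of the group means was Trsp-RIPKO (0.24, SD 0.038, n = 2), TrspFF (0.21, SD 0.090) and Trsp-Ins1KO (0.02, SD 0.021), and the first 2 did not differ beyond their spread. Trsp-RIPKO minus TrspFF was 0.03 (SE 0.076, 95% interval -0.16 to 0.23, limma adjusted p = 0.748). This value turned to -0.20 with scaling to each array's median and to -0.03 without TrspFF array 1. Trsp-Ins1KO minus TrspFF was -0.19 (95% interval -0.38 to 0.01, limma adjusted p = 0.101), which leaves room for a fall of up to 0.38 as well as for none. Trsp-Ins1KO minus Trsp-RIPKO was -0.22 (95% interval -0.41 to -0.03, limma adjusted p = 0.0739), and passed only with a trended robust fit (adjusted p = 0.0494).

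Irx2 was read by A_55_P2125557, well above background on all 6 arrays. It stood at -0.20 and -0.21 in TrspFF, at -0.18 and -0.15 in Trsp-RIPKO, with -0.41 and -0.33 in Trsp-Ins1KO. No 2 groups overlapped, with Trsp-RIPKO highest and Trsp-Ins1KO lowest, but the steps were small. Trsp-RIPKO minus TrspFF was 0.04 (SE 0.068, 95% interval -0.13 to 0.21, limma adjusted p = 0.647), and -0.20 with median scaling. Trsp-Ins1KO minus TrspFF was -0.16 (95% interval -0.33 to 0.01, limma adjusted p = 0.107), and Trsp-Ins1KO minus Trsp-RIPKO was -0.20 (95% interval -0.38 to -0.03, limma adjusted p = 0.067). No pair of neighbouring groups in this order passed the test. A second Irx2 probe (A_52_P635312) was well above background on 1 of the 6 arrays, the second Trsp-RIPKO array, and so says little about Irx2. In a fit without the background filter it gave 0.03 for Trsp-RIPKO and 0.63 for Trsp-Ins1KO against TrspFF (limma adjusted p = 0.948 and 0.133), the latter opposite in sign to the bright probe.

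Pou3f4 was at the edge of detection. Its only probe (A_51_P354003) was well above background on 1 of the 6 arrays, the second TrspFF array. Its unscaled spot signal was 50 to 60 intensity units, against 36 to 56 for the negative-control spots. Scaled levels were -4.88 and -4.13 in TrspFF, -4.55 and -4.22 in Trsp-RIPKO, with -4.91 and -3.96 in Trsp-Ins1KO, so every group overlapped the others and arrays within a group differed by more than the group means did. The probe did not enter the test. A fit without the filter gave 0.12 for Trsp-RIPKO and 0.07 for Trsp-Ins1KO against TrspFF (SE 0.42, limma adjusted p = 0.871 and 0.905). Whether Pou3f4 differed between the groups was not detectable at this signal.

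**Figure D2:**
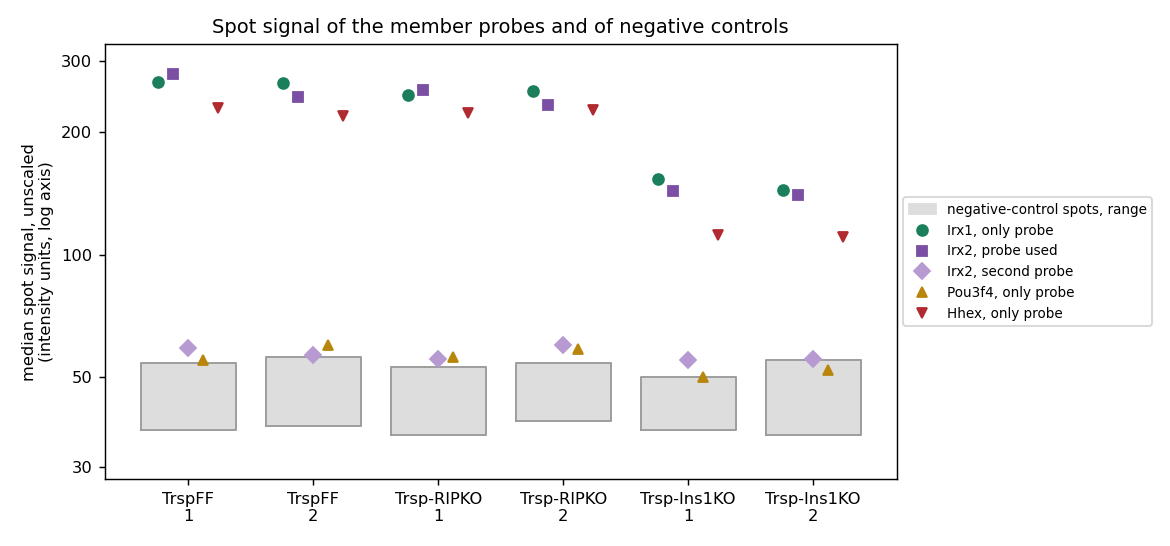
Median spot signal before any scaling (vertical axis, intensity units, logarithmic) of each member probe on each of the 6 arrays (horizontal axis); grey boxes span the lowest to the highest negative-control spot of the array. The Pou3f4 probe and the second Irx2 probe sit in or just above the boxes (Pou3f4 at 50 to 60), while the probes used for Irx1, Irx2 and Hhex sit well clear of them, with lower unscaled signal on the Trsp-Ins1KO arrays, where Irx1 was at 144 and 153.5.

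Hhex was read by 1 probe (A_52_P528600), well above background on all 6 arrays. Its level was -0.47 and -0.41 in TrspFF, -0.19 and -0.22 in Trsp-RIPKO, with -0.95 and -0.93 in Trsp-Ins1KO. The 3 pairs of arrays did not overlap, in the order Trsp-RIPKO, TrspFF, Trsp-Ins1KO, and the arrays of a pair were within 0.07 of each other. Groups without overlap were common, at 35.4% to 39.2% of all genes in each direction of each comparison. In Trsp-Ins1KO Hhex fell by 0.50 on the log2 scale against TrspFF (SE 0.065, 95% interval -0.67 to -0.33, limma adjusted p = 0.00476, lower on 2 of 2 arrays). The fall remained past the threshold in every alternative that follows the scanner files, leaving out each array included (-0.53 to -0.47, adjusted p of 0.0139 to 0.0411), but was -0.22 with normexp background correction (adjusted p = 0.0127). With normexp the median of all genes in this comparison stood at 0.16. Under the names in the authors' deposited table the fall of Hhex is a rise of 0.50. Against Trsp-RIPKO, Hhex fell by 0.74 in Trsp-Ins1KO (95% interval -0.90 to -0.57, limma adjusted p = 0.00233). That difference was -0.34 with normexp and -0.23 under the table's names (adjusted p = 0.000707 and 0.0448).

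In Trsp-RIPKO Hhex rose by 0.23 against TrspFF (SE 0.065, 95% interval 0.07 to 0.40, limma adjusted p = 0.045, higher on 2 of 2 arrays), and the same difference was -0.0041 with median scaling (adjusted p = 0.972). Median scaling moved the median of all genes by -0.24 in this comparison, so relative to that shift the position of Hhex was much the same. The same holds for Irx1 and Irx2, both at -0.20 with that scaling. The call was also lost with normexp (0.12, adjusted p = 0.204), without the background filter (0.146), and in each of the 6 fits without 1 array (0.20 to 0.27, adjusted p of 0.0518 to 0.227). A trended robust fit (0.0528), a fit of the 2 groups alone (0.0518) and a fit at the level of probes (0.0515) also left it just short of the threshold. Under the names in the authors' deposited table the difference would be 0.74. In whole islets a change in the share of cells that express Hhex and a change in its RNA per cell cannot be told apart. Hhex RNA of delta cells cannot be told apart from that of endothelial cells or hepatocytes either. For every gene below, the share of expressing cells and the RNA per cell are likewise not separable.

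These counts stand against a broad background of change. In Trsp-RIPKO against TrspFF 36.4% of the 19021 genes tested passed the threshold of adjusted p under 0.05 (18.9% higher and 17.5% lower), and 1 of the 3 tested members did, higher. In Trsp-Ins1KO against TrspFF 45.9% passed (23% higher and 23% lower), and 1 of 3 members did, lower. Between the knockout lines 38.7% passed (19.3% higher and 19.4% lower in Trsp-Ins1KO), and again 1 of 3 members, lower. Arrays that do not overlap were more common still. Groups without overlap were found for 38.1% (higher) and 39.2% (lower) of genes in the first comparison, 37.9% and 39% in the second, and 35.4% and 36.4% in the third, while 2 of 3 members were higher without overlap in the first and 3 of 3 were lower in the other two. With 3 members, 1 call is a share near the background in each comparison. The absence of overlap carries little weight for Hhex, Irx1 and Irx2, and likewise for Gcg and Sst below. The median of the 3 members was 0.04, -0.19 and -0.22 in the 3 comparisons, against -0.00023, -0.01 and -0.01 for all genes. Each comparison with TrspFF uses the same 2 control arrays, so the values of the knockout lines are not independent of each other.

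**Figure D3:**
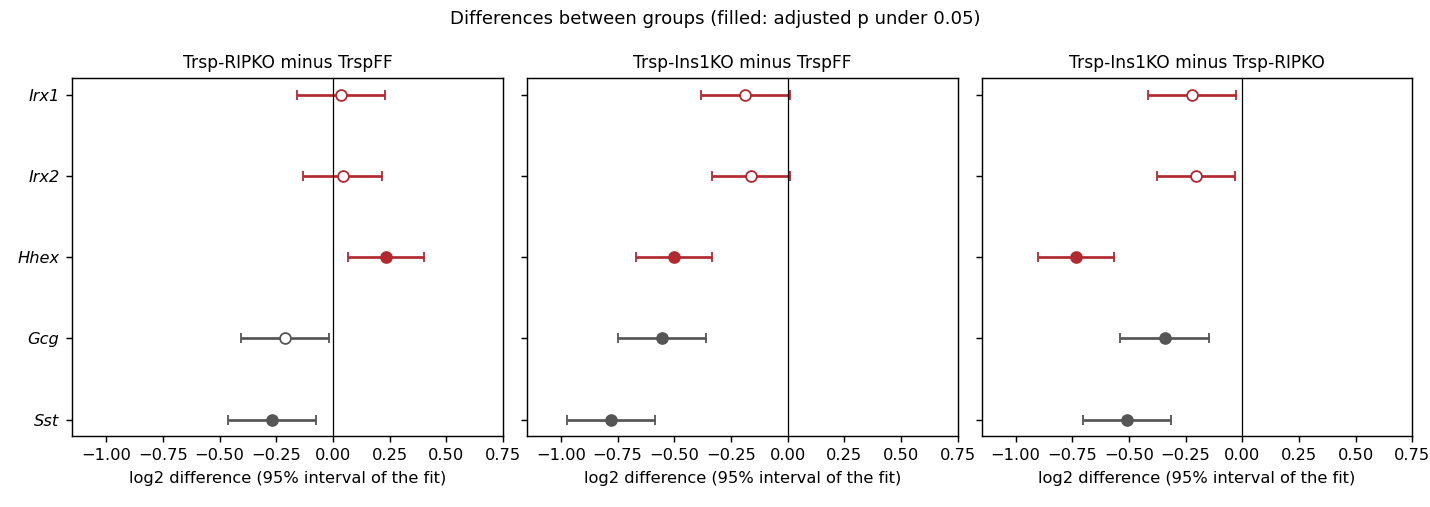
Log2 differences (horizontal axis) with the 95% interval of the limma fit for the 3 tested members (red) and for Gcg and Sst (grey) in 3 comparisons of 2 arrays against 2; filled points passed at adjusted p under 0.05. Hhex is filled in all 3 panels (0.23, -0.50 and -0.74), Irx1 and Irx2 in none, and Gcg and Sst are below 0 in all 3.

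**Figure D4:**
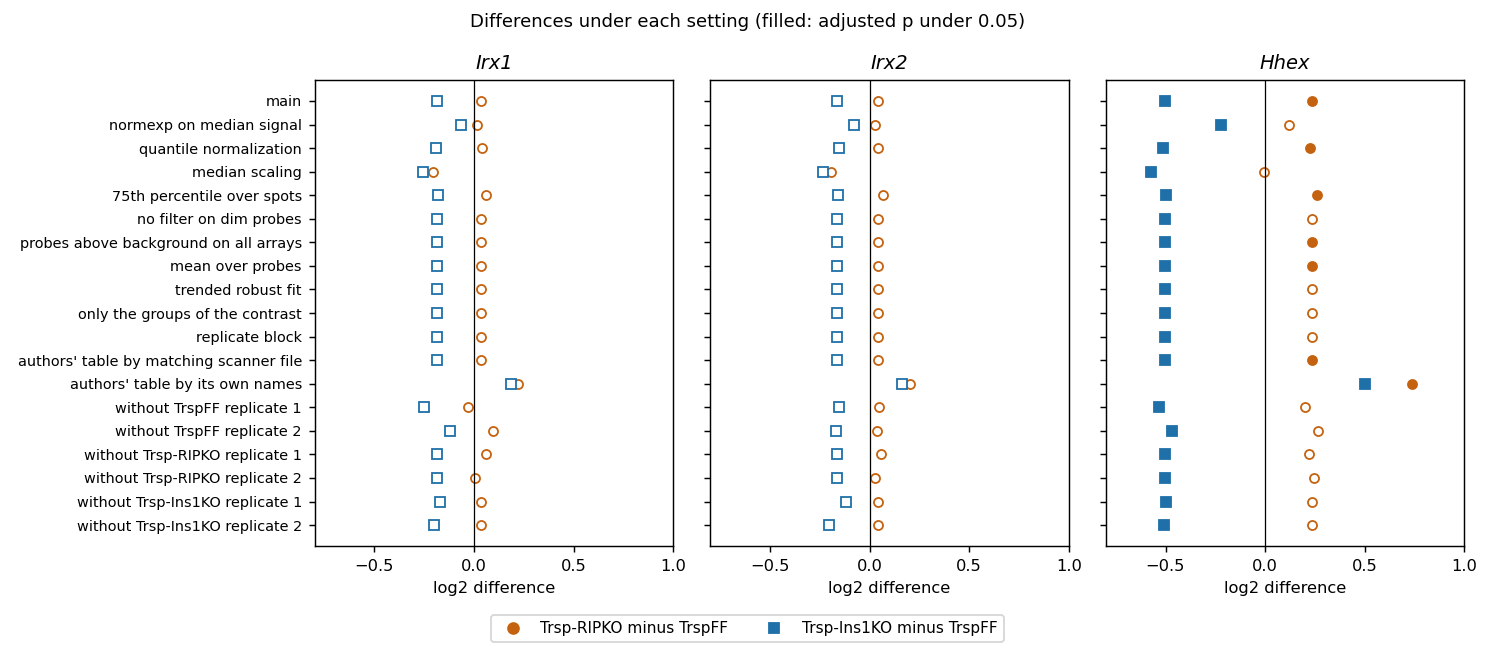
Log2 differences (horizontal axis) of Irx1, Irx2 and Hhex from TrspFF under each alternative setting (vertical axis), circles for Trsp-RIPKO and squares for Trsp-Ins1KO, filled where adjusted p was under 0.05. The Hhex squares are filled throughout and turn sign only with the authors' table under its own names (0.50), while the Hhex circles are mostly open and reach -0.0041 with median scaling.

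Irx1 and Irx2 had similar profiles over the 6 arrays, and Hhex had the same order of group means with wider steps. After centring each gene on its mean, Irx1 and Irx2 differed by a root mean square of 0.046 (Pearson's r = 0.90 over 6 arrays that share 3 groups). Hhex differed from them by 0.21 and 0.22 (r = 0.92 and 0.95), beyond the 0.1 used next. How many genes reach such an r was not counted. As a description of how common such profiles were, 690 of 13365 named genes lay within 0.1 of Irx1 and 766 within 0.1 of Irx2, against 77 for Hhex. The genes nearest to Irx1 were Ssbp1, Pvt1 and Pnrc2 (root mean square difference of 0.024 to 0.026), and those nearest to Irx2 were Gphn, Xpr1 and Dnpep (0.022 to 0.025). Nearest to Hhex were Stard4, Tmem229a and Slc38a5 (0.031 to 0.036). Slc38a5, an amino acid transporter of alpha cells that is on the list of alpha-cell markers, stood at 1.97 and 2.05 in TrspFF, 2.24 and 2.31 in Trsp-RIPKO, with 1.48 and 1.56 in Trsp-Ins1KO, in the same order of groups as Hhex.

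Among the relatives of the members, the other Iroquois factors and class III POU factors, most were near or below detection. Irx5, Irx6, Pou3f2 and Pou3f3 were above background on 0 arrays, which leaves 3 of 7 tested. Irx3 was above background on both Trsp-RIPKO arrays, on 1 of 2 Trsp-Ins1KO arrays and on neither TrspFF array, so that it entered the test only through Trsp-RIPKO. It was at -4.88 and -5.01 in TrspFF, -3.36 and -3.37 in Trsp-RIPKO, with -3.56 and -3.04 in Trsp-Ins1KO. In Trsp-RIPKO it was at least 2.00-fold higher than in TrspFF (limma adjusted p = 0.00727, fitted difference 1.58, 0.32 with normexp), a difference that the way it entered the test favours. With 1 of 2 arrays at background, no fold is given for Trsp-Ins1KO (fitted difference 1.65, 0.71 with normexp). Irx4, the neighbour of Irx2, was at -3.88 and -3.32 in TrspFF, -3.35 and -2.03 in Trsp-RIPKO, with -2.81 and -2.48 in Trsp-Ins1KO, and did not pass (0.92 and 0.96, limma adjusted p = 0.175 and 0.147). Pou3f1, known from Schwann cells and neurons, rose by 0.80 in Trsp-RIPKO (limma adjusted p = 0.0117; 0.28 with normexp) and was not above background in Trsp-Ins1KO. Its call was lost without TrspFF array 1 (0.90, adjusted p = 0.0552), TrspFF array 2 (0.70, adjusted p = 0.0659) or Trsp-RIPKO array 2 (0.69, adjusted p = 0.0579).

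Meis2, another homeodomain factor known from alpha cells, rose by 0.55 in Trsp-Ins1KO (limma adjusted p = 0.00742; 0.34 with normexp), a call lost without TrspFF array 1 (0.47, adjusted p = 0.0512).

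Genes on the list of alpha-cell markers were mixed. Gcg, encoding glucagon, was at 9.32 and 9.38 in TrspFF, 9.08 and 9.20 in Trsp-RIPKO, with 8.83 and 8.77 in Trsp-Ins1KO. The 3 groups did not overlap, with Trsp-Ins1KO lowest. Gcg fell by 0.56 in Trsp-Ins1KO (limma adjusted p = 0.00536; -0.88 with quantile normalization and -0.84 with normexp), and was at -0.21 in Trsp-RIPKO (adjusted p = 0.0824), where it passed with normexp, quantile normalization, median scaling (-0.45) and a trended robust fit (adjusted p of 0.00586, 0.0468, 0.0128 and 0.0129). Over the list of alpha-cell markers, 2 of 11 tested genes rose and 5 fell in Trsp-Ins1KO (median -0.08; 23% of all genes each way), and 2 rose and 3 fell in Trsp-RIPKO (median -0.03; 18.9% and 17.5% of all genes), with Sstr2 below background throughout. Gcgr, the glucagon receptor, is counted on this list but is not particular to alpha cells. It fell by 0.82 in Trsp-RIPKO and by 0.65 in Trsp-Ins1KO (limma adjusted p = 0.00671 and 0.00526). Dpp10, a partner of potassium channels, fell by 0.58 and 1.02 (limma adjusted p = 0.0082 and 0.00154; -0.19 and -0.29 with normexp), but its second probe was at -0.65 and -0.03, and the fall of 0.58 was lost without either TrspFF array (-0.61 and -0.56, highest adjusted p = 0.0584). Gc, the vitamin D binding protein, rose by 0.62 in Trsp-RIPKO (limma adjusted p = 0.00667), or by 0.38 with median scaling, a call lost without TrspFF array 1 (0.59). The rise of Gc was not particular to Trsp-RIPKO, as it was at 0.43 in Trsp-Ins1KO against TrspFF. A second Gc probe, above background on all 6 arrays, was at 0.78 in Trsp-RIPKO and 1.13 in Trsp-Ins1KO. Fap, a serine protease, fell by 1.48 in Trsp-Ins1KO (limma adjusted p = 0.00613), where it was above background on 1 of 2 arrays, and was at -0.02 with normexp (adjusted p = 0.844).

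Delta-cell genes other than Hhex also went both ways. Sst, encoding somatostatin, was at 7.89 and 7.86 in TrspFF, 7.56 and 7.65 in Trsp-RIPKO, with 7.15 and 7.04 in Trsp-Ins1KO. Its groups did not overlap, with Trsp-Ins1KO lowest and TrspFF highest, so that Hhex and Sst were both lowest in Trsp-Ins1KO but stood in opposite order in the other 2 groups. Sst fell by 0.78 in Trsp-Ins1KO (limma adjusted p = 0.0027). In Trsp-RIPKO it fell by 0.27 (limma adjusted p = 0.046), or by 0.51 with median scaling and 0.49 with quantile normalization, a call lost without either TrspFF array or either Trsp-RIPKO array (-0.32 to -0.22, highest adjusted p = 0.198), without the background filter (0.138) and with the percentile taken over spots (0.0589). Among the 12 tested delta-cell markers, 4 rose and 2 fell in Trsp-Ins1KO (median -0.14), and 5 rose and 2 fell in Trsp-RIPKO (median 0.07), against the same shares of all genes. Rbp4, a retinol carrier enriched in delta cells, fell by 0.77 in Trsp-Ins1KO (limma adjusted p = 0.00196) and Nrsn1, a vesicle protein of neurons, rose there by 0.76 (limma adjusted p = 0.00326; 0.48 with normexp). In Trsp-RIPKO the leptin receptor Lepr rose by 0.95, the ghrelin receptor Ghsr by 0.67 (0.27 with normexp), and the Wnt antagonist Frzb fell by 0.64 (limma adjusted p = 0.00988, 0.00759 and 0.00752). Each of these 3 calls was lost without TrspFF array 1 (0.96, 0.64 and -0.64, adjusted p of 0.0638, 0.0600 and 0.0595), Lepr and Frzb also without TrspFF array 2 (0.94 and -0.65, adjusted p = 0.0587 and 0.0505), and Lepr without Trsp-RIPKO array 2 (1.00, adjusted p = 0.0518). Isl2, Sstr1 and Cckbr were above background on 0 arrays and Spock3 on 1, and these 4 were not tested.

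**Figure D5:**
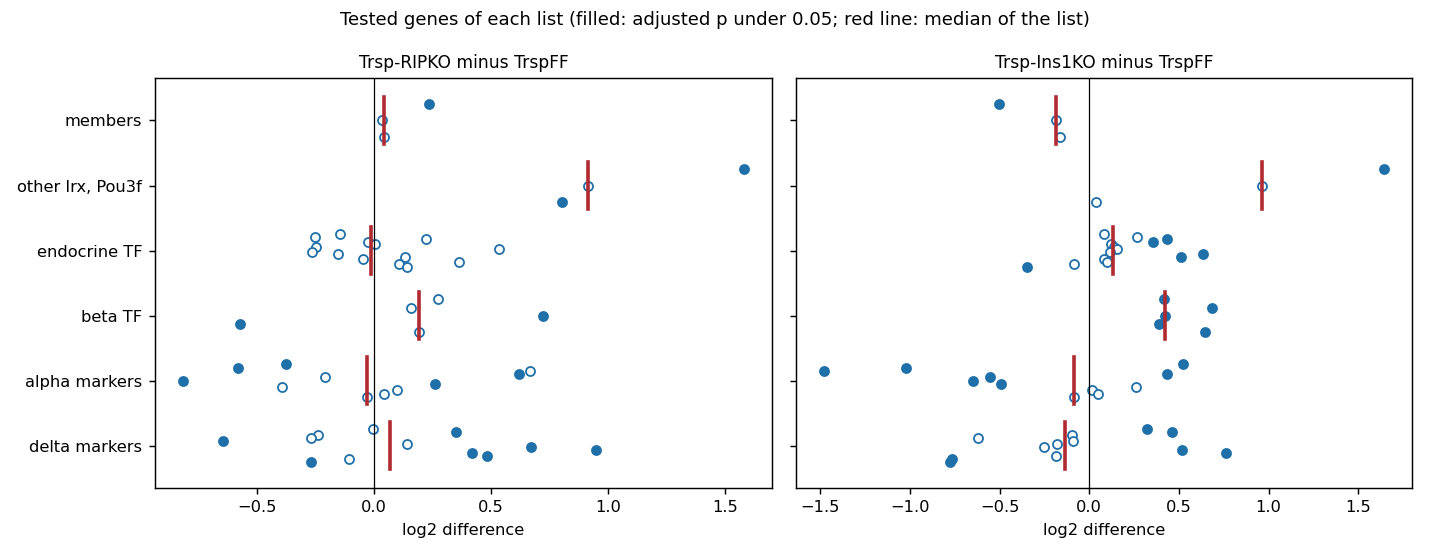
Log2 differences from TrspFF (horizontal axis) of every tested gene on 6 lists (vertical axis), for Trsp-RIPKO on the left and Trsp-Ins1KO on the right; filled points passed at adjusted p under 0.05, red lines are list medians, and the horizontal ranges of the panels differ. Alpha and delta markers spread to both sides of 0 in both panels (medians -0.03 and 0.07 on the left, -0.08 and -0.14 on the right), and all 5 beta-cell factors are to the right of 0 and filled in Trsp-Ins1KO (median 0.42).

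Most factors on the list of transcription factors shared by islet hormone cells did not pass the test. Of 14 tested factors of this list, 4 rose, 1 fell and 9 did not pass in Trsp-Ins1KO (median 0.13), where 23% of all genes were called higher and 23% lower, against 0 that rose or fell in Trsp-RIPKO (median -0.01). Nkx2-2 was called at 0.64 (limma adjusted p = 0.00647), but its second probe was at -0.70 and the mean over probes at -0.03. Pax6, needed for the glucagon and insulin genes alike, rose by 0.51 with a second probe at 0.56 (limma adjusted p = 0.0249), a call lost without TrspFF array 1, TrspFF array 2 or Trsp-Ins1KO array 2 (0.44, 0.58 and 0.36, adjusted p of 0.123, 0.0705 and 0.0631). Hnf4a, a nuclear receptor also found in liver and intestine, rose by 0.43 (limma adjusted p = 0.00782; 0.39 and adjusted p = 0.0627 without TrspFF array 1).

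All 5 tested beta-cell factors rose in Trsp-Ins1KO (median 0.42), where 23% of all genes were called higher, with Pax4 above background on 0 arrays and no probe found for Mnx1. Mafa and Pdx1, which drive insulin transcription, rose by 0.68 and 0.65 (limma adjusted p = 0.00396 and 0.00433; 0.45 and 0.41 with normexp). Neurog3, the factor of endocrine progenitors, rose by 0.42 there and by 0.72 in Trsp-RIPKO (limma adjusted p = 0.0253 and 0.0105). The first of these was lost without either TrspFF array or Trsp-Ins1KO array 2 (0.30 to 0.46, highest adjusted p = 0.124), and the second without any TrspFF or Trsp-RIPKO array (0.69 to 0.75, highest adjusted p = 0.0702). In Trsp-RIPKO, 1 of the 5 rose and Nkx6-1, which represses alpha-cell genes in beta cells, fell by 0.57 (limma adjusted p = 0.00987), lost without TrspFF array 1, TrspFF array 2 or Trsp-RIPKO array 2 (-0.61 to -0.53, highest adjusted p = 0.0705). On the same Trsp-Ins1KO arrays Irx1 and Irx2 stood below TrspFF without passing, and Meis2, also known from alpha cells, passed as higher (0.55). A link between these genes and the beta-cell factors was not tested.

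Markers of other cells that could reach an islet preparation moved with the groups, and their part in the values of Hhex, Irx1 and Irx2 was not tested. Summed levels are given relative to the 75th percentile, as the range over the 2 arrays of a group. Endothelial genes, from a cell type that expresses Hhex, rose in 9 of 12 cases and fell in 0 in Trsp-Ins1KO (median 1.05; 23% of all genes higher), and their sum was 113 to 115 there against 65.3 to 66.3 in TrspFF. In Trsp-RIPKO 6 rose and 0 fell (median 0.29; 18.9% of all genes higher; sum 79.03 to 80.26). Plvap, of fenestrated endothelium, rose by 1.79 in Trsp-Ins1KO and Cdh5, VE-cadherin, by 0.79 in Trsp-RIPKO (limma adjusted p = 0.000533 and 0.00747), while the defining marker Pecam1 was above background on all 6 arrays at -2.23 to -1.78, highest in Trsp-RIPKO. Hepatocyte genes, from another cell type that expresses Hhex, were called higher in 10 of 11 cases in Trsp-Ins1KO (median 2.44, or 2.24 with genes at their bound). That count is partly set by the filter: 5 of the 11 entered the test only through Trsp-Ins1KO, and Apob was above background on neither those arrays nor the TrspFF arrays. Of the 5 that were above background on all arrays of both groups, 4 rose. In Trsp-RIPKO 2 rose and 1 fell (median 0.22), but 5 of the 11 were above background on no array of Trsp-RIPKO or TrspFF. Another 1 entered only through Trsp-RIPKO, and of the 5 above background on all arrays of both groups, 1 rose and 1 fell. Alb, albumin, was above background only on the Trsp-Ins1KO arrays (-0.23 and -0.21) and was at least 17.2-fold higher there than in TrspFF. The summed hepatocyte list moved little (80.6 to 81.6 in TrspFF, 78.7 to 81.9 in Trsp-RIPKO, 84.2 to 84.6 in Trsp-Ins1KO), since Ttr, which alpha cells also express, is on it.

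The remaining lists are given by their counts, to be read against the 18.9% of all genes called higher and 17.5% lower in Trsp-RIPKO, and 23% each way in Trsp-Ins1KO. Of 14 acinar genes, 12 rose in Trsp-RIPKO, and in Trsp-Ins1KO 11 rose and 1 fell (medians 1.53 and 1.42; sums 18.8 to 19.6 in TrspFF, 31.4 to 35.0 in Trsp-RIPKO and 27.2 to 29.1 in Trsp-Ins1KO), led by Reg1 (2.40) and Cpb1 (2.96). Of 8 intestinal genes, 7 rose in Trsp-RIPKO (median 3.84, or 3.001 at bound) and 4 in Trsp-Ins1KO (median 0.53), with sums of 7.98 to 8.25 in TrspFF, 13.9 in Trsp-RIPKO and 9.88 to 10.4 in Trsp-Ins1KO. Fabp1 was above background on both arrays of each knockout line and on neither TrspFF array. Of the intestinal genes, 3 entered the test only through Trsp-RIPKO, and 3 of the 4 that were above background on all TrspFF and Trsp-RIPKO arrays rose. On the TrspFF and Trsp-Ins1KO arrays, 3 of the 8 were above background on none, and 1 of the 3 above background on all rose. Of 9 fibroblast genes, 7 rose in Trsp-RIPKO (median 0.64), and in Trsp-Ins1KO 7 fell and 2 rose (median -0.55). Of the 7 above background on all TrspFF and Trsp-Ins1KO arrays, 2 rose and 5 fell. The fibroblast sum went the other way from the count in Trsp-Ins1KO (58.8 to 63.0 in TrspFF, 67.1 to 68.3 in Trsp-RIPKO, 70.3 to 76.1 in Trsp-Ins1KO). Duct genes rose in 3 of 12 cases in each line, with 1 and 2 that fell, and Sox9, Muc1 and Onecut1 were not tested, Sox9 being above background on 0 arrays and Krt19 on all 6. Macrophage and B-cell genes rose in 3 and 2 of 7 cases and fell in 0. Nearly all of their summed level was Itgam (136.6 to 138.2 in TrspFF, 185.6 to 199 in Trsp-RIPKO, with 250.7 to 270.4 in Trsp-Ins1KO), the other 6 genes summing to 5.10 to 5.60, 7.14 to 7.28 and 6.63 to 6.73 in the same order. The B-cell gene Cd79a was above background on 0 arrays. Of 8 genes of neurons and glia, 2 rose in Trsp-RIPKO, and in Trsp-Ins1KO 1 rose and 4 fell. Of the 4 genes of pancreatic polypeptide and ghrelin cells, 3 fell in Trsp-RIPKO and 2 in Trsp-Ins1KO, Ghrl by 1.74 and 1.24 (limma adjusted p = 0.00329 and 0.00273).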

How the data were processed

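Total RNA of islets was labelled with Cy3 and hybridised to Agilent design 026655, and arrays were read by Feature Extraction 10.7.3.1, per the file headers. The deposited scanner files hold processed intensity, already background-subtracted by the authors' software and not scaled between arrays, with median signal and 0 or 1 flags. A second deposited file, a table by the authors, gives log2 values of 39485 rows for each array; no source used here states its scaling, and its column medians were -0.08 to 0.14.

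From the scanner files, control spots (1377) and outlier spots were dropped, spots of a probe were averaged, and log2 intensity minus the array's 75th percentile over probes was computed for 39426 probes. RefSeq accessions named 26049 probes (66.1%) through a GRCm38.p6 gene table, used for names and gene order. A probe entered if some group had it well above background on both arrays (23199 probes), and the brightest entering probe stood for its gene (19021 genes). limma 3.58.1 in R 4.3.3 fitted a mean per group to all 6 arrays (5.1 total and 2.1 prior degrees of freedom), with two-sided tests and Benjamini-Hochberg adjustment over all genes; a gene was called at an adjusted p under 0.05. "At least N-fold" sets the brighter group against the dimmer group's detection floor or own signal, whichever was higher. Where 1 array was left out, the lone array of its group was assumed to vary like the other groups. Alternatives were normexp with offset 50, quantile and median scaling, other filters and probe rules, other fits, the authors' table, and leaving out each array; the percentile over spots was added after seeing the data.

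The members, the 17 gene lists and the tests were chosen with earlier results of these data known. Beyond the members, the text names on each list of islet genes the called genes with the 3 largest changes in each comparison, with Gcg and Sst always given; on other lists it names the gene of the largest called change or gives counts, and for each tested member the 3 nearest genes. Other genes it names (Slc38a5, Irx4, Alb, Pecam1 and those listed as below background) were chosen to show detection or likeness, and some genes of alpha cells are not reported here. Files were read and plotted with Python 3.11.15 (pandas 2.3.3, numpy 2.4.6, matplotlib 3.10.9).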

Additional observations from a re-analysis of the deposited data

Results flagged for a closer look

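For 15 results the difference between the knockout lines, tested directly as Trsp-Ins1KO minus Trsp-RIPKO, passed at a limma adjusted p under 0.05. Over all genes 38.7% did so, and the Trsp-RIPKO arrays alone filled a slide. Apart from Hhex, these genes were named for their changes against TrspFF on the same arrays, or were always given (Gcg and Sst). Their number can therefore not be set against the share of all genes. Hhex was among the 15 at -0.74. Lower in Trsp-Ins1KO than in Trsp-RIPKO were also Rbp4 (-0.66), Sst (-0.51), Dpp10 (-0.44) and Gcg (-0.34). Ghsr and Pou3f1 were not well above background in Trsp-Ins1KO, so that their fitted differences (-0.92 and -0.76) stand only for at least 1.81-fold and at least 1.58-fold higher levels in Trsp-RIPKO. Fap (-2.14) was above background on 1 of 2 Trsp-Ins1KO arrays. Higher were Nkx6-1 (0.96), Nkx2-2 (0.79), Frzb (0.55), Mafa (0.53), Pdx1 (0.45), Meis2 (0.42) and Nrsn1 (0.35). For Dpp10 and Nkx2-2 a second probe, above background on all 6 arrays, put the lines in the opposite order. Against TrspFF, that of Dpp10 was at -0.65 in Trsp-RIPKO and -0.03 in Trsp-Ins1KO, and that of Nkx2-2 at -0.12 and -0.70.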

How the results depend on the processing

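Each result was recomputed under 18 alternatives, apart from results that a stricter filter removed. For Irx1, Irx2 and Hhex, Trsp-Ins1KO minus TrspFF kept its sign and its side of the threshold in 17 of 18, the exception being the authors' table under its own names (0.19, 0.16 and 0.50). Trsp-RIPKO minus TrspFF turned with median scaling for Irx1 (-0.20), Irx2 (-0.20) and Hhex (-0.0041), and for Irx1 without TrspFF array 1; leaving out arrays gave -0.030 to 0.10 for Irx1, 0.03 to 0.06 for Irx2 and 0.20 to 0.27 for Hhex. Hhex lost its Trsp-RIPKO call with normexp (0.12) and, at an unchanged 0.23, without the filter, with a trended robust fit, with only the groups of the contrast and with the replicate block (adjusted p = 0.0657), which otherwise ended the Sst call alone (0.0695). Irx1 in Trsp-Ins1KO minus Trsp-RIPKO (-0.22) passed with a trended robust fit. Leaving out arrays, Trsp-Ins1KO minus TrspFF ranged from -0.25 to -0.12 (Irx1), -0.20 to -0.12 (Irx2) and -0.53 to -0.47 (Hhex), and Trsp-Ins1KO minus Trsp-RIPKO from -0.25 to -0.19, -0.24 to -0.16 and -0.75 to -0.72. The causes were not tested.

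Same-numbered arrays deviated together only weakly (correlations of 0.09, 0.08 and 0.06 over genes). The labels do not say whether the numbers pair arrays, and these correlations cannot settle it. With the replicate block the calls numbered 6598, 8489 and 7050, against 6921, 8737 and 7365 without it. Counts of called genes in Trsp-RIPKO against TrspFF, Trsp-Ins1KO against TrspFF and between the lines moved to 2692, 13943 and 11645 without the filter, to 13971 and 12057 for the last 2 with normexp, and to 862 to 7692, 3791 to 8242 and 4176 to 6578 without 1 array.

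Among other named genes, 11 of 26 calls held in every alternative but the table's own names. Those names turned Irx3 (-1.64), Meis2 (-0.55), Nkx2-2 (-0.64), Pax6 (-0.51), Hnf4a (-0.43), Mafa (-0.68), Pdx1 (-0.65), Neurog3 (-0.42), Fap (1.48), Dpp10 (1.02), Gcgr (0.65), Gcg (0.56), Sst (0.78), Rbp4 (0.77) and Nrsn1 (-0.76) in Trsp-Ins1KO, and Irx3 (-0.066), Dpp10 (0.44), Gcg (0.34) and Sst (0.51) in Trsp-RIPKO. Nkx2-2 turned in Trsp-Ins1KO with the mean over probes (-0.034).

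The 2 arrays a group limit the precision, and signal over background limits Pou3f4, which has no main value because its probe did not enter the fit.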
